A study of Homo sapiens with 24 samples.

Results

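RNA-seq of ACHN, a renal carcinoma line of human origin that the labels class as ccRCC, was compared between a double knockdown of KDM5C and YY1 and a knockdown of YY1 alone. The comparison uses 6 of the 24 libraries of the series, 3 of the double knockdown (Dsh) and 3 of the YY1 knockdown (shYY1), taken by their group labels. The other libraries are a control hairpin (shNC) and a KDM5C knockdown (shKDM5C) in ACHN cells, and the same 4 groups in HK-2 cells, a line derived from normal proximal tubule, written HK2 in the labels. The comparison asks what lowering KDM5C changes in cells whose YY1 is already low. Per the study's methods, hairpins were delivered by lentivirus (pLKO.1), cells were selected with puromycin, and double-knockdown cells were made by infecting YY1-depleted cells with a KDM5C hairpin plasmid that carries GFP. Whether the shYY1 cells received a second vector is not stated in the sources used here, so the second infection and GFP cannot be told apart from the loss of KDM5C. Both groups carry a YY1 hairpin, and no group is a knockout. The study's methods list alternative hairpins for each gene. The labels do not say which was used, so a difference in hairpin between groups cannot be told apart either. The labels number 3 repeats per group but do not say whether they were separate cultures, so p-values measure the spread between these libraries, which may be technical.

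KDM5C is an X-linked demethylase that removes methyl groups from lysine 4 of histone H3, a mark of active promoters and enhancers, and it is recurrently mutated in clear cell renal carcinoma. YY1 is a zinc finger factor that binds many promoters, works with INO80 and Polycomb partners, and can either activate or repress. KDM5A and KDM5B are paralogs of KDM5C with the same enzymatic activity, and YY2 and ZFP42 are relatives of YY1.

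The 3 shYY1 libraries held 18505041 to 19273176 read pairs on genes, and the 3 Dsh libraries 17910371 to 24272298. Replicates of a group differed by more than sampling noise (chi-square per gene of 2.29 to 2.64 within shYY1 and 5.62 to 6.97 within Dsh), so no library was counted as a duplicate. Of 8 renal epithelial markers, 7 were present at 1 CPM (counts of a gene scaled to the total of its library) or more in both groups. The summed level of the renal epithelial markers was 2724 to 2801 CPM in shYY1 and 1613 to 1771 CPM in Dsh cells. Of 10 leukocyte markers, 6 had no count in shYY1 and 4 had none in Dsh cells, and their sum was 52.6 to 58.9 CPM in shYY1 and 60.7 to 66.1 CPM in Dsh cells. The 10 fibroblast markers summed to 463 to 483 CPM in shYY1 and 284 to 313 CPM in Dsh cells, with 4 of them at 1 CPM or more, and the 10 endothelial markers to at most 5.93 CPM. Genes of the mitochondrial genome took 6.80% to 7.22% of counts in these 6 libraries. Processed pseudogenes took 0.396% to 0.418% in shYY1 and 0.295% to 0.315% in Dsh cells, and 2 unplaced scaffolds that hold ribosomal RNA took 0.00214% to 0.0239% and 0.037% to 0.0479%. The part of these differences between the groups in the results was not tested.

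The targeted genes were examined first. KDM5C (chromosome X, 53191321 to 53225422, GRCh38) had 87.5, 87.4 and 92.02 CPM in shYY1 and 39.2, 40.1 and 39.5 CPM in Dsh cells. The groups did not overlap, and Dsh cells kept less KDM5C RNA in every library, with a log2 fold change of -1.15 (SE 0.053, adjusted p = 8.63e-12, edgeR). Control cells had 70.1 CPM and shKDM5C cells 42.3 CPM, so KDM5C ended at a like level in shKDM5C and Dsh cells but started from a higher one in shYY1 than in shNC cells. The log2 change on added KDM5C knockdown differed from that of KDM5C knockdown alone by -0.42 (SE 0.0669, adjusted p = 6.48e-06 for the interaction, edgeR). YY1 did not stay level. It had 78.4, 71.7 and 75.9 CPM in shYY1 and 88.6, 101 and 93.9 CPM in Dsh cells against 138 CPM in shNC, and differed by 0.34 on the log2 scale between the 2 knockdown groups (SE 0.0575, adjusted p = 5.36e-05, edgeR). YY1 was thus below shNC in both groups and less so in Dsh cells, and each change described here goes with a fall of KDM5C and a partial return of YY1 that cannot be told apart.

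Among the relatives, KDM5B rose. It had 69.3, 69.9 and 73.95 CPM in shYY1 and 152, 169.8 and 162 CPM in Dsh cells, without overlap, at a log2 fold change of 1.20 (SE 0.053, adjusted p = 5.32e-12, edgeR). Its change with KDM5C knockdown alone was 0.16, and the interaction was 1.04 (adjusted p = 1.58e-12, edgeR). KDM5A rose by less, from 95.05 ± 1.95 to 119.8 ± 11.1 CPM (mean ± SD, n = 3), or 0.35 on the log2 scale (adjusted p = 6.93e-05, edgeR). YY2 was at 1.48 to 1.87 CPM in shYY1 and 1.83 to 3.66 CPM in Dsh cells, and these ranges overlapped. Its call (log2 fold change 0.81, adjusted p = 0.0167, edgeR) was lost without Dsh replicate 1 (adjusted p = 0.059), without Dsh replicate 2 (adjusted p = 0.0727) and without shYY1 replicate 2 (adjusted p = 0.0647). ZFP42 had 1 count over the 6 libraries and was not tested.

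**Figure D1:**
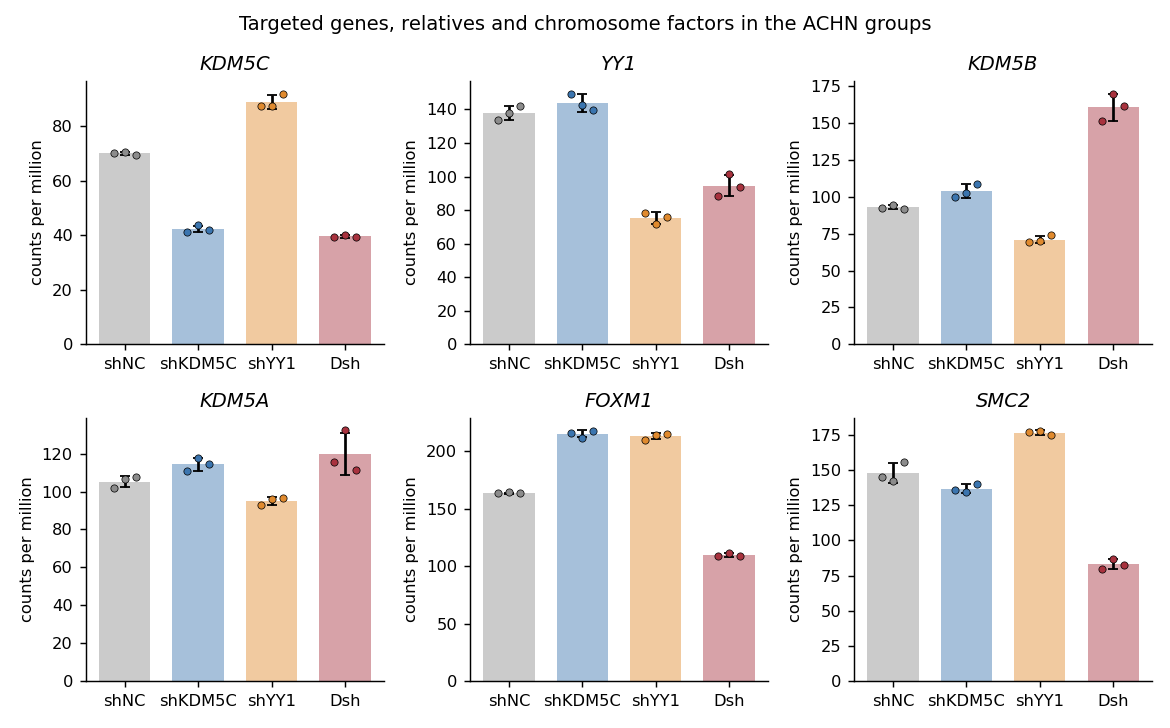
CPM (vertical axis, from 0) of KDM5C, YY1, KDM5B, KDM5A, FOXM1 and SMC2 in the 4 ACHN groups; bars are means, error bars SD and points the 3 libraries of each group. KDM5C was near 42.3 CPM in shKDM5C and 39.6 CPM in Dsh cells against 88.97 CPM in shYY1, and KDM5B, FOXM1 and SMC2 moved in Dsh cells away from the level of shYY1.

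Of 16414 genes tested between Dsh and shYY1 cells, 5248 (32%) were higher and 5362 (32.7%) were lower in Dsh cells at an adjusted p under 0.05 in edgeR's quasi-likelihood test. With the fold change that the study used, a log2 fold change of at least 1.5 in size, 669 genes (4.08%) rose and 930 (5.67%) fell. Beside this, KDM5C knockdown against the control, with the same number of libraries and 16184 genes tested, gave 4673 higher (28.9%) and 4481 lower genes (27.7%), of which 108 (0.667%) and 433 (2.68%) passed the fold change. The median absolute log2 fold change over all genes tested was 0.424 for Dsh against shYY1 and 0.273 for shKDM5C against shNC. The median signed change was 0.0041, so changes are relative to a centre near 0. A list is read here against the 32% and 32.7% of all genes that were higher and lower. Protein-coding genes at 5 CPM or more were called more often. On chromosomes 7, 8, 9, 13, 17 and 18, 916 of 2400 such genes were higher and 982 lower. On all other chromosomes, 3108 of 8579 were higher and 3088 lower. For this comparison, rose and fell mean higher and lower in Dsh than in shYY1 cells, and a gene that rose may still lie at or below its shNC level.

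The 12 protein-coding genes that rose most, among those at 10 CPM or more without overlap between the groups, were VCAM1, NRK, SLC17A3, SIGLEC15, ITGB3, PLEK, HOXA7, FXYD2, TRPM8, COL5A2, XKR7 and TNFAIP6. VCAM1, a cell surface adhesion protein for leukocyte integrins that inflammatory signals induce, had no count in any shYY1 library and 31.1, 32.95 and 29.6 CPM in the Dsh libraries. Against a floor of 3 counts over the shYY1 group this is at least 582-fold higher in Dsh cells, and shNC and shKDM5C cells held 0.107 and 0.613 CPM. SIGLEC15, a receptor for sialylated glycans, had 1.10, 1.43 and 0.934 CPM in shYY1 and 51.9, 44.9 and 49.2 CPM in Dsh cells (log2 fold change 5.41, SE 0.124, adjusted p = 1.25e-15, edgeR). The mean of VCAM1, SIGLEC15, the renal anion and phosphate transporter SLC17A3 and the cold-sensing channel TRPM8 was higher in Dsh cells than in any other ACHN group, as was that of each other leading gene except HOXA7.

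Several leaders were also low in shYY1 cells. NRK, a kinase gene on chromosome X, had 0.0523, 0.159 and 0.165 CPM in shYY1 and 76.97, 85.3 and 75.2 CPM in Dsh cells, with 68.8 CPM in shNC and 68.2 CPM in shKDM5C cells. NRK was thus near 0 in shYY1 alone, and Dsh cells stood near the 2 groups that carry no YY1 hairpin. HOXA7, a homeobox factor, followed the same pattern, with 0.373 CPM in shYY1 against 27.4, 34.5 and 12.9 CPM in shNC, shKDM5C and Dsh cells, as did the protein kinase C substrate PLEK, with 0.959 CPM against 17.6, 27.8 and 35.7 CPM. In 8 of the 12 leading higher genes the shYY1 level lay farther from shNC than the Dsh level did, on the log2 scale. These include integrin beta 3 (ITGB3, log2 fold change 5.37), the sodium pump regulator FXYD2 (4.86), the fibrillar collagen gene COL5A2 (4.50), XKR7 (4.43) and the secreted hyaluronan-binding protein TNFAIP6 (4.38). Dsh cells were made from YY1-depleted cells, and whether the sequenced shYY1 libraries came from that same culture is not stated in the sources used here.

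The 12 protein-coding genes that fell most by the same rule were ADAM28, SLCO2B1, EPHA5, BGN, MSLN, PLEKHA7, S100A4, MT-ATP8, CACNA1H, TNNC1, NRXN3 and ADAM33. ADAM28, a membrane metalloprotease, had 67.7, 65.5 and 66.9 CPM in shYY1 and 0.0504, 0.161 and 0 CPM in Dsh cells, with 1.30 CPM in shNC and 0.161 CPM in shKDM5C cells, so that it was high in shYY1 alone. The organic anion transporter SLCO2B1 (39.6 against 0.135 CPM, 0.547 CPM in shNC) and the ephrin receptor EPHA5 (25.4 against 0.253 CPM, 0.514 CPM in shNC) had the same shape. The matrix proteoglycan BGN was above shNC in shYY1 and below it in Dsh cells (45.5 and 0.514 CPM, 6.12 CPM in shNC). It was also lower in shKDM5C cells, at 1.35 CPM. PLEKHA7, a protein of adherens junctions, was different. It had 101, 105 and 101 CPM in shYY1 and 1.76, 2.10 and 2.31 CPM in Dsh cells, while shNC and shKDM5C cells had 30.5 and 63.9 CPM, so that it was low in Dsh alone (log2 fold change -5.61, SE 0.0881, adjusted p = 1.5e-17, edgeR). S100A4, a calcium-binding protein of motile cells, fell from 50.9 ± 1.84 to 1.02 ± 0.389 CPM (mean ± SD, n = 3), the surface protein mesothelin (MSLN) by 5.61 on the log2 scale, the T-type calcium channel gene CACNA1H by 5.35 and troponin C (TNNC1) by 5.03. In 7 of these 12 genes the Dsh level lay farther from shNC than the shYY1 level. MT-ATP8 overlaps MT-ATP6 on the mitochondrial genome, so its reads are uncertain.

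**Figure D2:**
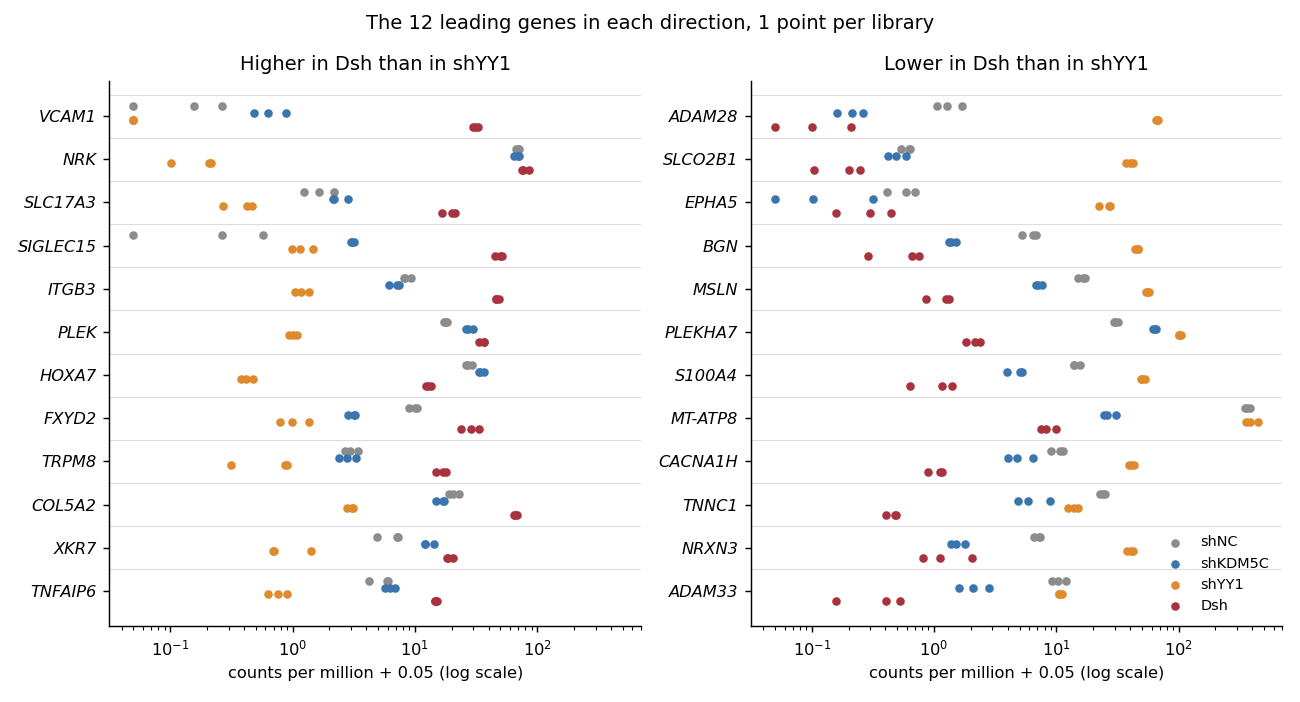
CPM plus 0.05 (horizontal axis, log scale) of the 12 protein-coding genes that rose most and the 12 that fell most between shYY1 and Dsh, 1 point per library in the 4 ACHN groups. NRK, PLEK and HOXA7 are low in shYY1 alone and ADAM28 and SLCO2B1 are high in shYY1 alone, whereas VCAM1 is high and PLEKHA7 low in Dsh alone.

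Genes of cell division fell together. Mitotic genes carry the cell through G2 and mitosis under FOXM1, B-MYB and the MuvB complex, which act at promoters with CHR elements and CCAAT boxes. Of 68 mitosis and G2/M genes tested, 63 fell and 2 rose, with a median log2 fold change of -0.64. FOXM1 had 210.2, 214 and 215 CPM in shYY1 and 109, 111 and 109 CPM in Dsh cells (log2 fold change -0.94, SE 0.0426, adjusted p = 6.88e-12, edgeR). MYBL2, which encodes B-MYB, had 154, 132 and 157 CPM in shYY1 and 62.7, 60.03 and 65.1 CPM in Dsh cells. No FOXM1 or MYBL2 value of one group reached the other group. The 4 largest falls were those of CKS2, a CDK-binding protein, by 1.61 on the log2 scale, of the spindle midzone protein PRC1 by 1.34, of MYBL2 by 1.22 and of the cytokinesis regulator RACGAP1 by 1.17. The 2 exceptions were NDC80, a kinetochore protein, at 0.42 and topoisomerase TOP2A at 0.14. The call of TOP2A was lost without shYY1 replicate 1 (adjusted p = 0.085) or shYY1 replicate 2 (adjusted p = 0.08), and with the GC and length trend removed (adjusted p = 0.195). In bulk RNA, fewer cells in a phase and less RNA per cell cannot be told apart.

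Genes that keep chromosomes in shape are part of this list. SMC2, a core subunit of both condensins, had 177, 178 and 175 CPM in shYY1 and 79.99, 86.8 and 82.4 CPM in Dsh cells (log2 fold change -1.07, SE 0.0469, adjusted p = 4.54e-12, edgeR). Its partner SMC4 fell from 203 ± 5.44 to 138 ± 11.49 CPM (mean ± SD, n = 3; log2 fold change -0.54), and KNTC1, a kinetochore protein of the spindle checkpoint, from 100 ± 1.26 to 71.3 ± 3.72 CPM (-0.47). The lamin LMNB1 was at 126 ± 6.08 and 113 ± 2.46 CPM. Its log2 fold change of -0.14 (adjusted p = 0.0176, edgeR) was not called without Dsh replicate 1 (adjusted p = 0.0621), without shYY1 replicate 3 (adjusted p = 0.12) or with total counts as the scaling (adjusted p = 0.0986). JAM3, a junction adhesion molecule that the study also names, fell from 18.6 ± 0.499 to 11.9 ± 0.739 CPM (-0.63, adjusted p = 9.22e-06, edgeR).

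Promoters of the mitotic genes were read from RefSeq (GRCh38.p14, 250 bases before to 50 bases after the start). Both strands were searched for TTTGAA, the CHR element, and for CCAAT. Of 56 list members with a promoter in the table, 37 (66.1%) held TTTGAA, against 9.47% of 11446 promoters of all genes tested and 15.4% of all 27305 promoters. CCAAT was found in 69.6% of them, against 35.9% of those of all genes tested. Promoters of all genes that fell past the fold change held TTTGAA in 8.74% and CCAAT in 31.8%, and those of genes that rose in 12.3% and 35.7%, so these shares describe the list and not the direction of change. These are matches of letters, not measured binding. The 200 bases before the start of CKS2 (chr9:89310995-89311194, plus strand), PRC1 (chr15:90994536-90994735, minus strand) and CCNB2 (chr15:59104946-59105145, plus strand), which encodes cyclin B2 and had a log2 fold change of -1.05, are shown because each holds a CHR element close to the start with CCAAT upstream of it. CCNB2 was chosen after its values and sequence were seen. In the same stretch MYBL2 held neither TTTGAA nor CCAAT, while of the mitotic genes CCNB1 and CDK1 the first held CCAAT alone and the second both. Capitals mark TTTGAA and CCAAT or their reverse complements TTCAAA and ATTGG.
CKS2: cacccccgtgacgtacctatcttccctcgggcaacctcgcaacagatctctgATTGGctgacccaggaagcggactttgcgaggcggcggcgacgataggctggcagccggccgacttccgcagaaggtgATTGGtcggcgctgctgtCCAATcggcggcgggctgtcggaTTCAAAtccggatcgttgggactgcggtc
PRC1: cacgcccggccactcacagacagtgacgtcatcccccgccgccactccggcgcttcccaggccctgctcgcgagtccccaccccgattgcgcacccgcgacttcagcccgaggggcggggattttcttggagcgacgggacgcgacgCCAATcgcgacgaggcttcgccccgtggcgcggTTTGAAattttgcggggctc
CCNB2: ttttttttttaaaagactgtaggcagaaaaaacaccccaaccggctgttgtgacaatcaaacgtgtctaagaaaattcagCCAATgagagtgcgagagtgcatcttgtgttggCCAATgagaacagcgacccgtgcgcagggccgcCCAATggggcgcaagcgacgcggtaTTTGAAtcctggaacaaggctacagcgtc

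DNA replication genes moved the same way. Of 55 tested, 39 fell and 5 rose, with a median of -0.49. E2F2, an activator of S phase genes, fell from 12.1 ± 0.919 to 3.49 ± 0.340 CPM (mean ± SD, n = 3; log2 fold change -1.77). GINS2, a subunit of the replicative helicase, had 32.4, 31.2 and 36.5 CPM in shYY1 and 10.6, 8.22 and 10.2 CPM in Dsh cells (log2 fold change -1.76, SE 0.0977, adjusted p = 9.1e-11, edgeR). The helicase subunit MCM6 fell by 1.26 on the log2 scale and the atypical repressor E2F8 by 1.06. Its paralog E2F7 rose (0.92), as did thymidylate synthase TYMS (0.57), which lies on chromosome 18. The E2F-type motif TTCCCGC was found in 20 of 47 promoters of this list (42.6%), in 10.1% of those of all genes tested, and in 8.74% of those of genes that fell and 5.25% of those of genes that rose past the fold change. The 200 bases before the start of E2F2 and of MCM6 held no TTCCCGC on either strand. The motif of GINS2 (chr16:85688955-85689154, minus strand) is shown within the 200 bases before its start, where capitals mark its reverse complement GCGGGAA and a CCAAT box.
GINS2: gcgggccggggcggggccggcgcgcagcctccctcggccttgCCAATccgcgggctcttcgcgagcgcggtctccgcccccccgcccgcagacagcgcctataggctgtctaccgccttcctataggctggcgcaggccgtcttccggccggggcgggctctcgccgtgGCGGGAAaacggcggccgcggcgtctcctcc
Homologous recombination and Fanconi genes were mixed, with 7 higher and 13 lower of 34. RAD54B fell by 1.21, FANCC by 1.06 and the exonuclease EXO1 by 0.82 on the log2 scale. BRCA1 (0.33), its partner PALB2 (0.77), the damage kinase ATM (0.69) and the resection factor RBBP8 (0.64) rose. BRCA1 was at 56.1, 36 and 44.7 CPM in shNC, shYY1 and Dsh cells, and RBBP8 at 42.6, 27.65 and 42.7 CPM. PALB2 (39.1 against 29.5 CPM) and ATM (129.9 against 82.04 CPM) were above shNC in Dsh cells.

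Target genes of p53, the factor that restrains cycling and promotes death after damage, were higher in Dsh cells in 25 of 29 cases and lower in 3, with a median log2 fold change of 0.90. BTG2, an antiproliferative gene, had 54.7, 59.6 and 59.1 CPM in shYY1 and 229.6, 212 and 223 CPM in Dsh cells (log2 fold change 1.96, SE 0.0506, adjusted p = 5.13e-15, edgeR). The mitochondrial reductase FDXR rose by 1.68, the stress protein SESN2 by 1.67 and the secreted stress factor GDF15 by 1.55. The GDF15 values were 152, 155 and 149 CPM in shYY1 and 431, 446 and 444 CPM in Dsh cells, against 66.6 CPM in shNC cells. BAX, the effector of mitochondrial outer membrane opening, fell (-0.47), as did the nuclease AEN (-0.41). SESN2 is also a target of ATF4. Of 41 apoptosis genes tested, 24 rose and 9 fell. The death receptor FAS (1.39), the BH3 protein BBC3 (1.19) and the inflammatory caspase CASP1 (2.34) rose with the caspase inhibitor BIRC3 (2.19). The members that fell include the mitochondrial proteins DIABLO, by 1.95 on the log2 scale, cytochrome c (CYCS), by 1.11, and AIFM1, by 0.73, and the initiator caspase CASP9, by 0.73.

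Inflammatory genes had strong members in both directions. Of 31 cytokine and NF-kB feedback genes tested, 19 rose and 6 fell, with 8 and 3 past the fold change. The adhesion receptor ICAM1 had 0.523, 0.476 and 0.165 CPM in shYY1 and 8.42, 7.74 and 7.40 CPM in Dsh cells. BIRC3, an NF-kB target, had 29.1, 31.3 and 32.96 CPM in shYY1 and 139, 145 and 136 CPM in Dsh cells (log2 fold change 2.19, SE 0.0567, adjusted p = 5.13e-15, edgeR). The cytokine CSF2 rose from 2.25 ± 0.432 to 15.97 ± 2.03 CPM (mean ± SD, n = 3). The 3 genes rose in every Dsh library above every shYY1 library. The monocyte chemokine CCL2 fell from 71.7 ± 3.69 to 20.2 ± 1.90 CPM, IL32 from 225 ± 14.96 to 112 ± 7.92 CPM and the acute phase gene SAA1 from 26.6 ± 1.60 to 19.02 ± 2.28 CPM. The NF-kB type motif GGGNNTTCC was found in 8 of 22 promoters of this list (36.4%), in 8.20% of those of all genes tested, and in 9.19% of those of genes that rose and 6.32% of those of genes that fell past the fold change. It lies in the promoter of VCAM1, of which the 200 bases before the start (chr1:100719542-100719741, plus strand) are shown because VCAM1 rose most of the genes named. The 200 bases before the start of BIRC3 also held a match, and those of ICAM1 held none. Capitals mark the match in VCAM1.
VCAM1: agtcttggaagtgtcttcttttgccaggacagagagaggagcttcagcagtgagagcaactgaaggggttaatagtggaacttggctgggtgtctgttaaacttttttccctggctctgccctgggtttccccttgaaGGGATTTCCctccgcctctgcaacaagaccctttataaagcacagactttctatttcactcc

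Interferon and antigen presentation genes changed by less. Of 38 interferon response and sensing genes tested, 17 rose and 9 fell, with a median of 0.10. The antiviral enzyme OAS2 (1.51), the factors IRF1 (1.24) and IRF7 (1.23) and IFIT3 (1.18) rose. IRF1 had 30.1, 33.1 and 30 CPM in shYY1 and 73.3, 72.2 and 72.3 CPM in Dsh cells. The deconjugase USP18 fell by 1.14 on the log2 scale, the membrane protein IFITM2 by 1.07, IFI44 by 0.91 and OAS3 by 0.55, so that members of 1 family, OAS2 and OAS3, went opposite ways. Of 18 MHC class I presentation genes tested, 11 rose and 3 fell. The peptidase ERAP1 (0.92) and the peptide transporter TAP1 (0.69) rose, and the proteasome subunit PSMB9 (-0.70) and the chaperone CALR (-0.49) fell.

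Genes of adhesion and matrix were remodelled without a common direction. Of 27 cadherin, epithelial and mesenchymal genes tested, 10 rose and 12 fell. CDH1 (E-cadherin), the adhesion protein of epithelial junctions, had 40.6, 43.8 and 40.3 CPM in shYY1 and 6.20, 3.82 and 5.45 CPM in Dsh cells (log2 fold change -2.98, SE 0.114, adjusted p = 7.75e-13, edgeR). It also fell on KDM5C knockdown alone, from 47.5 to 5.56 CPM. The intermediate filament gene KRT8 fell from 1774 ± 29.4 to 684 ± 44.6 CPM (mean ± SD, n = 3). SNAI2, a repressor of epithelial genes, fell by 1.49 on the log2 scale, so an epithelial gene and a mesenchymal factor fell together. The matrix protein fibronectin (FN1) had 838, 904 and 849 CPM in shYY1 and 5831, 6296 and 6034 CPM in Dsh cells (log2 fold change 2.83, SE 0.0435, adjusted p = 1.47e-17, edgeR), with 3339 CPM in shNC cells. T-cadherin (CDH13) rose by 3.00, the tight junction proteins CLDN2 by 5.00 and F11R by 1.46. CDH13 was at 40.9, 2.285 and 18.2 CPM in shNC, shYY1 and Dsh cells, so it stayed below shNC. CLDN2 (9.18 against 0.620 CPM) and F11R (71.9 against 39.55 CPM) were above shNC in Dsh cells.

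Of 42 collagen, laminin and matrix genes tested, 19 rose and 18 fell, and 6 passed the fold change in each direction. COL16A1 had 298, 314 and 291 CPM in shYY1 and 25.96, 22.4 and 25.3 CPM in Dsh cells (log2 fold change -3.60), and NID2, a basement membrane linker, fell by 3.06, COL7A1 by 1.80 and COL12A1 by 1.68 on the log2 scale. COL8A1 (2.48), the laminin LAMA1 (1.58) and tenascin C (TNC, 1.54) rose. COL8A1 was at 60.9, 3.83 and 21.1 CPM in shNC, shYY1 and Dsh cells, so it stayed below shNC. LAMA1 (100.3 against 83.04 CPM) and TNC (36.3 against 18.8 CPM) were above shNC in Dsh cells. Among 18 matrix protease genes tested, 11 rose and 5 fell. The plasminogen activator PLAT rose from 15.2 ± 0.864 to 77.5 ± 0.181 CPM (mean ± SD, n = 3) and the urokinase receptor PLAUR by 1.09 on the log2 scale. MMP19 rose (1.73) and MMP11 fell (-1.63).

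Growth factor signalling genes were higher more often than lower. Of 44 receptor tyrosine kinase and ligand genes tested, 29 rose and 12 fell, with a median of 0.59, and 10 and 8 passed the fold change. FGFR2, a fibroblast growth factor receptor, had 214, 213 and 219.6 CPM in shYY1 and 8.32, 7.79 and 10.5 CPM in Dsh cells (log2 fold change -4.57, SE 0.0753, adjusted p = 2.55e-17, edgeR). IGFBP3, a carrier of insulin-like growth factors, had 1169.7, 1097 and 1185 CPM in shYY1 and 87.05, 77.1 and 84.9 CPM in Dsh cells. The receptors ERBB3 (-2.65) and PDGFRB (-2.17) also fell. The EGFR ligands EREG and AREG rose, EREG from 0.196 ± 0.124 to 8.09 ± 1.25 CPM (mean ± SD, n = 3) and AREG from 2.26 ± 0.151 to 12.6 ± 0.997 CPM, as did the ERK phosphatase DUSP6 (3.04) and IGFBP7 (2.56).

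Of 43 TGF-beta, WNT and YAP genes tested, 14 rose and 21 fell. ANKRD1, a target of YAP, had 103, 111 and 108 CPM in shYY1 and 15.7, 14.6 and 14.1 CPM in Dsh cells, and the WNT inhibitor DKK1 (-2.64), the ligand WNT7B (-6.20) and the factor TCF7 (-2.55) fell with it. WNT5B (1.55), the receptors FZD7 (1.54) and FZD2 (1.06) and the ligand TGFB2 (0.90) rose. Of 28 AP-1, MYC and immediate early genes, 13 rose and 8 fell. JUN (0.79), JUND (1.18) and KLF2 (2.70) rose, and JUNB (-0.95) and ATF3 (-0.96) fell, so the JUN family split. The MYC antagonist MXI1 rose (0.78) and its relative MXD3 fell (-1.30), as did the nuclear receptor NR4A1 (-0.82). Of 23 neuronal genes under the repressor REST, a setting in which KDM5C is known to act, 16 rose and 6 fell (median 0.54). On KDM5C knockdown alone, 5 of 22 rose and 9 fell (median 0.03). In HK2 Dsh against shYY1 cells, 7 of 24 rose and 6 fell (median 0.01). The neurofilament gene NEFL had 4.13, 3.39 and 2.69 CPM in ACHN shYY1 and 67.7, 70.5 and 66.4 CPM in ACHN Dsh cells (log2 fold change 4.33, SE 0.102, adjusted p = 1.52e-15, edgeR). The filament gene INA (5.30), the secreted peptide precursor VGF (1.77) and the sodium channel SCN2A (1.56) also rose in ACHN cells. The tubulin TUBB2B fell from 83.9 ± 4.73 to 7.95 ± 1.02 CPM (mean ± SD, n = 3). Of 38 germline genes listed, 7 passed the filter on low counts, of which 1 rose and 3 fell (2 rose without Dsh replicate 1 and 0 without shYY1 replicate 2).

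**Figure D3:**
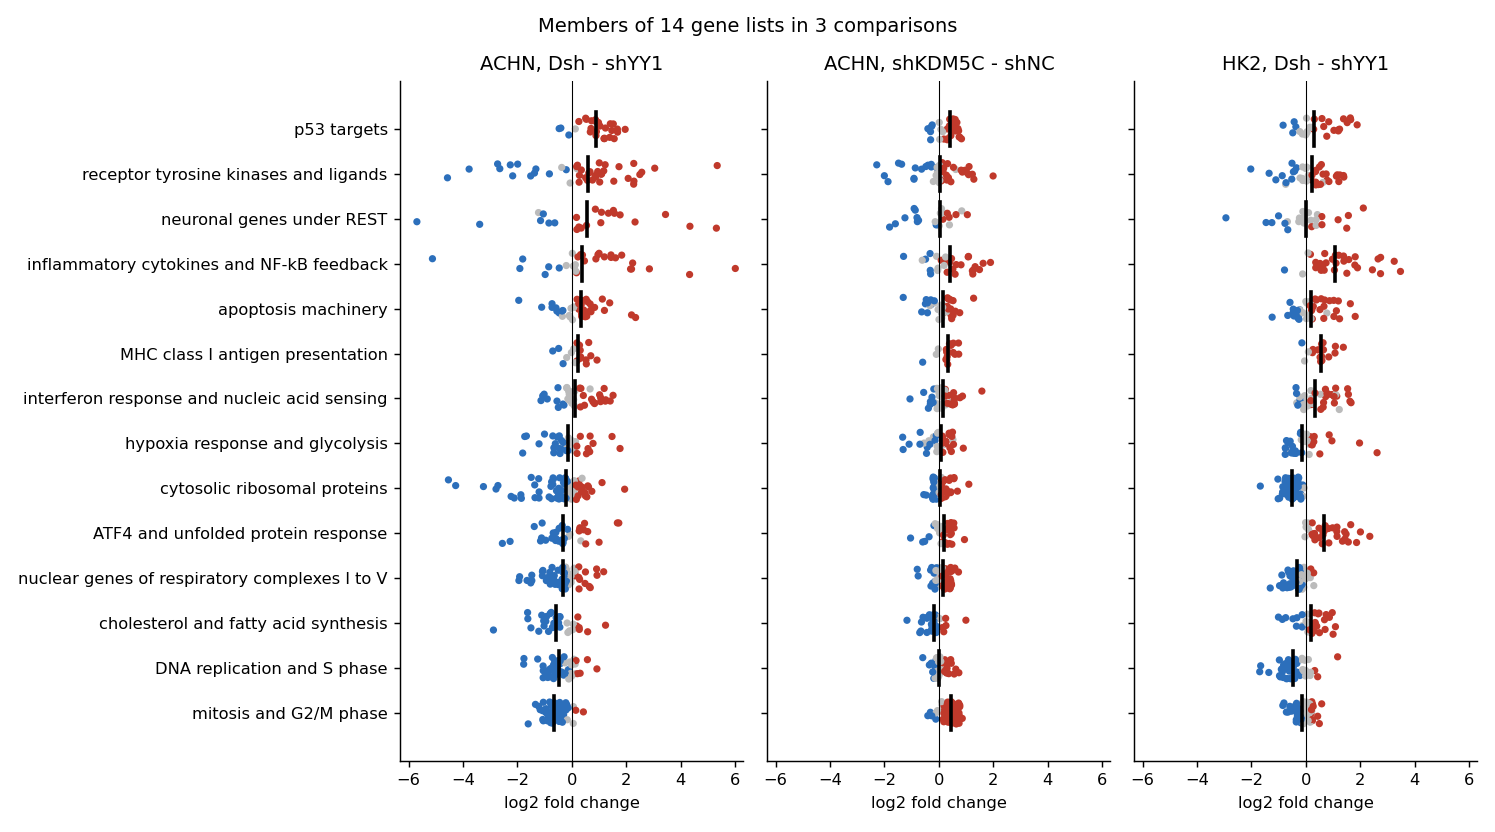
Log2 fold change (horizontal axis, drawn at 6 or -6 where beyond) of the members of 14 gene lists in ACHN Dsh against shYY1, ACHN shKDM5C against shNC and HK2 Dsh against shYY1; red points are higher and blue points lower at an adjusted p under 0.05, grey points were not called and black bars are medians. The mitosis and G2/M median is -0.64 in the first panel and 0.44 in the second, and the ATF4 median -0.35 in the first and 0.65 in the third.

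Kidney and hypoxia genes moved in both directions. PAX2, a factor of renal development, had 87.7, 82.6 and 76.03 CPM in shYY1 and 6.45, 4.57 and 4.58 CPM in Dsh cells (log2 fold change -3.97, SE 0.103, adjusted p = 5.13e-15, edgeR). Its relative PAX8, a defining gene of renal epithelium, rose from 489.6 ± 20.7 to 699 ± 32.3 CPM (mean ± SD, n = 3), while LHX1 fell by 1.99 and the kidney cadherin CDH16 by 1.09 on the log2 scale. Of 19 tubule identity genes tested, 8 rose and 8 fell. The injury marker HAVCR1 rose by 0.68, while the proximal tubule peptidase DPP4 changed by -1.31. EPAS1, which encodes HIF-2 alpha, the hypoxia factor of clear cell renal carcinoma, had 662, 663 and 648 CPM in shYY1 and 206, 198 and 208 CPM in Dsh cells (log2 fold change -1.67, SE 0.0412, adjusted p = 2.66e-15, edgeR). Of 37 hypoxia and glycolysis genes, 10 rose and 18 fell. The glucose transporter SLC2A3 (1.77) and the mTORC1 inhibitor DDIT4 (1.47) rose, and NDRG1 (-1.73), ADM (-1.81) and the glycolytic regulator PFKFB3 (-1.01) fell.

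Lipid and amino acid genes fell more often than they rose. Of 34 cholesterol and fatty acid synthesis genes, 23 fell and 6 rose, with a median of -0.58. The desaturase SCD had 703, 772 and 731 CPM in shYY1 and 229, 242 and 234 CPM in Dsh cells (log2 fold change -1.63), and the sterol enzymes HMGCS1 (82.4 to 28.7 CPM), CYP51A1 (-1.62) and EBP (-1.22) fell. The elongase ELOVL6 (1.23) and the sterol sensor SCAP (0.58) rose. Of 34 ATF4 and unfolded protein response genes, 21 fell and 10 rose. SLC7A5, the amino acid transporter LAT1, had 3194, 3178 and 3109 CPM in shYY1 and 519, 526 and 550.1 CPM in Dsh cells (log2 fold change -2.55, SE 0.0394, adjusted p = 1.47e-17, edgeR), and its partner chain SLC3A2 fell from 639 ± 17.9 to 175 ± 6.82 CPM (mean ± SD, n = 3). NUPR1 fell by 1.38, the serine synthesis enzyme PHGDH by 1.15 and ALDH1L2 by 2.27 on the log2 scale. The factor CEBPB (1.72), the sensor kinase ERN1 (1.00) and TRIB3 (0.58) rose. Of 38 glycogen, pentose phosphate and ferroptosis genes, 12 rose and 19 fell, with the glycogen phosphatase subunit PPP1R3B (1.80), the pentose phosphate enzyme PGLS (1.16) and the iron importer TFRC (0.88) higher and the peroxiredoxin repair enzyme SRXN1 (-2.68) and the ferroptosis suppressor AIFM2 (-1.04) lower.

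Ribosomal and respiratory genes fell in part, and these are short genes. Of 59 nuclear genes of respiratory complexes I to V, 36 fell and 12 rose, with a median of -0.33. COX6C (-1.92), NDUFA1 (-1.95), NDUFB3 (-1.65) and NDUFS6 (-1.51) fell past the fold change, and the ATP synthase subunit ATP5F1D rose (1.17). Of 77 cytosolic ribosomal protein genes, 42 fell and 18 rose, and 9 of those that fell passed the fold change. RPS23 had 298, 290.5 and 316 CPM in shYY1 and 13.9, 12.1 and 12.6 CPM in Dsh cells, RPL30 went from 265 to 13.7 CPM and RPL23A from 399 to 41.6 CPM, while RPL26 rose from 11.9 to 45.2 CPM. These genes have processed copies elsewhere in the genome with which they can share reads, so their values are uncertain. Of 498 processed pseudogenes tested, 73 fell and 32 rose past the fold change. Protein-coding genes at 5 CPM or more with up to 1000 exon bases (71 genes) had a median log2 fold change of -0.43, those of 1000 to 2000 bases -0.20 and those above 8000 bases 0.09. In HK2 cells the medians of the same genes were -0.26, -0.19 and 0.10, and for shKDM5C against shNC 0.07, 0.13 and -0.03. The part of gene length in these falls was not tested further than in the fit with the length trend removed, where 38 ribosomal protein genes fell and 22 rose.

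Among 15 mitochondrially encoded genes, 5 rose (3 without shYY1 replicate 1) and 7 fell. MT-ND1 rose from 4382 to 5424 CPM and MT-CO2 fell from 6132 to 3999.6 CPM. MT-ND4L had 2179, 2363 and 2363 CPM in shYY1 and 672, 336 and 327 CPM in Dsh cells and MT-ND3 681, 678 and 764 and 295, 111 and 121 CPM, so Dsh replicate 1 lay above the other two Dsh libraries in both short genes. MT-ATP8 had 352, 379.5 and 448 CPM in shYY1 and 9.88, 7.42 and 8.12 CPM in Dsh cells, and 26.97 CPM in shKDM5C cells against 364 CPM in shNC. MT-ATP8 and MT-ND4L overlap MT-ATP6 and MT-ND4, and how reads in the overlap were shared out was not tested. Of 17 replication-dependent histone genes tested, 2 rose and 2 fell, with 1 that rose without Dsh replicate 1 or 3 or without shYY1 replicate 2 or 3. Among them were the linker histone gene H1-2 (0.59) and H2BC5 (-1.36).

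Chromatin genes close to the targeted proteins moved in both directions. Of the 24 genes of the H3K4 methylation machinery tested, 12 rose and 7 fell, and none passed the fold change. Of all genes tested, 9.74% passed it. Of protein-coding genes at 5 CPM or more, 6.67% passed on chromosomes 7, 8, 9, 13, 17 and 18 and 5.87% on all others. Beside KDM5B, the H3K27 demethylase KDM6B rose (1.14), as did the demethylase PHF8 (0.52) and the methyltransferase KMT2D (0.45). The shared methyltransferase subunits WDR5 (-0.64) and ASH2L (-0.34) and the demethylase KDM1B (-0.61) fell. Of 27 genes of YY1, INO80 and Polycomb partners, 9 rose and 8 fell, which is near the 32% and 32.7% of all genes tested. EZH2, the H3K27 methyltransferase that follows proliferation in many cells, had 125, 122 and 122 CPM in shYY1 and 59.7, 57.5 and 61.4 CPM in Dsh cells (log2 fold change -1.03). Its paralog EZH1 (0.37), SUZ12 (0.61), BMI1 (0.38) and the YY1-binding protein RYBP (0.58) rose, from levels below shNC in shYY1 cells. In shNC, shYY1 and Dsh cells SUZ12 was at 98.5, 66.04 and 100 CPM and RYBP at 88.9, 48.1 and 71.3 CPM. BMI1 was at 42.3, 33.65 and 43.4 CPM and EZH1 at 22.8, 18.5 and 23.5 CPM. The INO80 subunit TFPT (-1.12), the Polycomb ubiquitin ligase RING1 (-0.77) and CTCF (-0.35) fell. The YY1 motif AANATGGCG was found in 10 of 381 promoters of genes that rose past the fold change (2.62%). Of those that fell, 9 of 538 held it (1.67%). The share was 6.58% in promoters of all genes tested and 3.37% in all 27305 RefSeq promoters, so the comparison depends on the background.

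KDM5C knockdown alone, which shares no library with Dsh against shYY1, gives the change at the YY1 level of control cells. The 2 comparisons may also differ in hairpins and infections. KDM5C started at 70.1 CPM in shNC and 88.97 CPM in shYY1 cells, and YY1 partly returned in Dsh cells. These differences cannot be told apart from that of the starting YY1 level. A test of the difference between the 2 changes over 12 libraries and 17228 genes called 4625 genes higher (26.8%) and 4961 lower (28.8%). Of the 669 genes that rose past the fold change in Dsh against shYY1, 581 had an interaction of the same direction, and of 930 that fell, 705 of the 927 that this fit kept. These genes were chosen on the same 6 libraries that enter the interaction, so their direction in it was largely fixed by that choice. Mitosis genes moved in opposite directions. Of the 68 tested, 60 rose and 4 fell on KDM5C knockdown alone (median 0.44), against 63 that fell here, and 65 were lower by the interaction. FOXM1 rose from 164 to 215 CPM on KDM5C knockdown alone and fell from 213 to 109.7 CPM with YY1 low, with an interaction of -1.34 (SE 0.0507, adjusted p = 3.65e-17, edgeR). The p53 targets rose in both settings, with 20 of 29 higher on KDM5C knockdown alone (median 0.40) and 25 higher by the interaction.

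Other genes fell in both settings, some without a difference that passed the test, which does not show that they changed alike. CDH1 had a log2 fold change of -3.10 on KDM5C knockdown alone and -2.98 with YY1 low, an interaction of 0.11 (SE 0.173, adjusted p = 0.609, edgeR). For JAM3 the values were -0.45 and -0.63, with an interaction of -0.19 (SE 0.11, adjusted p = 0.151, edgeR), which became -0.26 (adjusted p = 0.04) once the GC and length trend was removed. EPAS1 changed by -1.33 and -1.67, and its interaction of -0.35 passed the test (adjusted p = 1.63e-06, edgeR). IGFBP3 (-1.87 and -3.77) and FGFR2 (-1.48 and -4.57) fell in both settings and by more with YY1 low. PLEKHA7 rose by 1.06 on KDM5C knockdown alone and fell by 5.61 here, with an interaction of -6.67. COL1A1 fell by 3.57 on KDM5C knockdown alone, from 579 to 48.8 CPM, and was at 156 and 131 CPM in shYY1 and Dsh cells. The COL1A1 difference between shYY1 and Dsh cells was not called with the GC and length trend removed (-0.032, adjusted p = 0.462, edgeR). The largest interactions among protein-coding genes past the fold change at 10 CPM or more were, for higher genes, VCAM1, NRK, FXYD2, MLPH (5.77) and ITGB3 (5.70), and for lower genes SLCO2B1 (-7.77), ADAM28 (-6.93), PLEKHA7, GDF6 (-4.50) and MSLN (-4.43).

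Of the genes past the fold change that both fits tested, 828 fell here, of which 470 (56.8%) also fell and 85 (10.3%) rose on KDM5C knockdown alone, against 27.8% and 29.4% of all 15754 genes. Of 530 that rose here, 174 (32.8%) also rose and 126 (23.8%) fell, against 29.4% and 27.8% of all genes. The correlation of the 2 changes across these 15754 genes was 0.294 (Pearson) and 0.215 (Spearman). Genes are not independent replicates, and both comparisons come from 1 cell line and share gene length and depth.

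**Figure D4:**
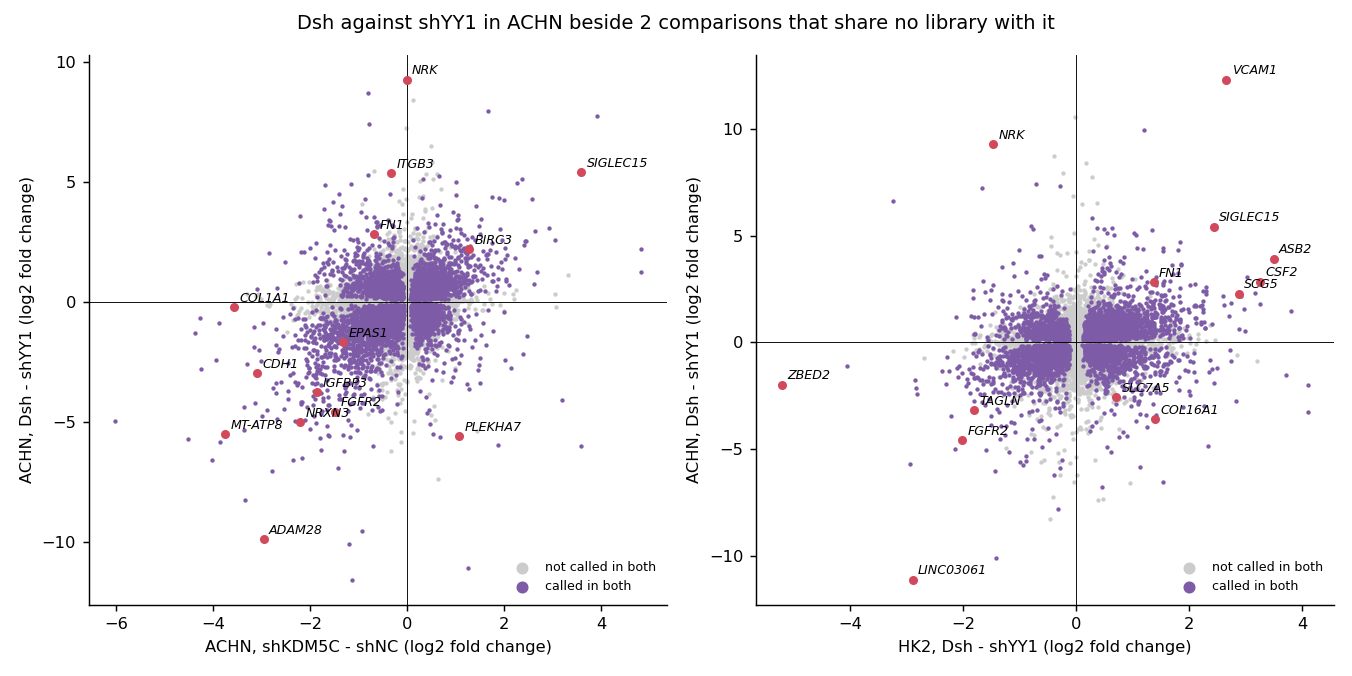
Log2 fold change of Dsh against shYY1 in ACHN cells (vertical axis) beside that of shKDM5C against shNC in ACHN cells (left, horizontal axis) and of Dsh against shYY1 in HK2 cells (right), 1 point per gene tested in both; purple points were called at an adjusted p under 0.05 in both and red points are named. CDH1, IGFBP3 and FGFR2 lie low in both of the left comparisons, while NRK lies near 0 on KDM5C knockdown alone; COL16A1 and SLC7A5 lie below 0 in ACHN and above 0 in HK2 cells, and VCAM1, with no count in ACHN shYY1, is drawn at its fitted value.

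The same step in HK2 cells, Dsh against shYY1, also shares no library. It called 3956 genes higher (24.8%) and 3653 lower (22.9%) of 15947, with 359 (2.25%) and 138 (0.865%) past the fold change. KDM5C fell by 1.83 on the log2 scale in HK2 cells. A test of the difference between the lines over 17953 genes called 3918 higher (21.8%) and 4335 lower (24.1%) in ACHN than in HK2 cells. Called in the same direction at a log2 fold change of at least 1 in both lines were 109 higher and 72 lower genes. VCAM1 rose in both (HK2 2.65), as did SIGLEC15 (2.44), CSF2 (3.24), the ubiquitin ligase adaptor ASB2 (3.92 in ACHN and 3.49 in HK2), the lipase LIPH (2.27 and 2.30) and the secretory chaperone SCG5 (2.27 and 2.87). ASB2 had 0.418, 0.476 and 0.385 CPM in the ACHN shYY1 and 7.21, 5.91 and 6.33 CPM in the ACHN Dsh libraries. FGFR2 fell in both (-2.02 in HK2), as did the factor ZBED2 (-1.98 and -5.20), the actin-binding TAGLN (-3.16 and -1.81) and the non-coding genes SNHG19 (-2.74 and -1.81) and ZFHX4-AS1 (-2.17 and -1.76). LINC03061, also non-coding, had 120.2, 119.9 and 115 CPM in ACHN shYY1 and 3 counts over the 3 Dsh libraries, a ratio of 2508 with a 95% counting interval of 858 to 12166, and a change of -2.89 in HK2 cells.

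Gene groups differed between the lines. Replication genes fell in both, 39 of 55 in ACHN and 41 of 55 in HK2 cells, with a median of -0.49 in each. Mitosis genes were lower in 32 and higher in 13 of 68 in HK2 cells (median -0.15), and in the test of the difference the change of 56 was lower in ACHN than in HK2 cells and that of 3 was higher. ATF4 and unfolded protein response genes rose in 28 of 34 and fell in 0 in HK2 cells (median 0.65), and 28 were lower in ACHN than in HK2 cells by the same test. SLC7A5 had a log2 fold change of -2.55 in ACHN and 0.71 in HK2 cells. Cholesterol and fatty acid genes rose in 20 and fell in 8 of 34 in HK2 cells, and 26 were lower in ACHN cells by the test of the difference. Cytokine and NF-kB genes rose in 28 of 31 in HK2 cells (median 1.09), with CCL2 at 1.11 against -1.81 in ACHN cells. The correlation of the 2 changes across 14627 genes was 0.203 (Pearson) and 0.223 (Spearman), in libraries that share a protocol and gene length. Of 503 genes that rose past the fold change in ACHN and were tested in both, 208 (41.4%) also rose in HK2 cells, against 25.2% of all genes, and of 588 that fell, 185 (31.5%) also fell, against 24.1%.

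Position on the chromosomes went with part of the change. Over 10979 protein-coding genes at 5 CPM or more, genes of chromosome 17 had a median log2 fold change of 0.37, with 435 of 661 higher and 99 lower, those of chromosomes 13 and 18 a median of 0.29, those of chromosome 7 of -0.33, and those of chromosomes 8 and 9 of -0.25. The other chromosomes had medians between -0.07 and 0.09. In windows of 20 Mb with at least 15 genes, 153 in all, the first window of chromosome 18 had the highest median, 0.82, with 37 of 39 genes higher and 1 lower. The window of chromosome 8 from 80 to 100 Mb had the lowest, -0.66, with 42 of 58 genes lower. For shKDM5C against shNC the medians of these 2 windows were 0.35 and -0.12, and in HK2 cells -0.10 and -0.12, where medians of all windows lay between -0.24 and 0.27. DNA copy number was not measured, and why neighbours moved together was not tested. The genes LAMA1, TYMS and NDC80 lie in the shifted part of chromosome 18, and RPL30, COX6C, NDRG1 and GDF6 lie on chromosome 8. The window of chromosome 17 from 40 to 60 Mb had a median of 0.37 and holds EZH1 (0.37) and BRCA1 (0.33). Other named genes on shifted chromosomes include SUZ12, TOP2A, KDM6B, FDXR and ITGB3 on chromosome 17 and RBBP8 on chromosome 18. EZH2, CYCS, IGFBP3 and HOXA7 lie on chromosome 7. On chromosome 9, SMC2 lies in a window with a median of -0.30, and CKS2 and FANCC in one with a median of -0.47. RAD54B lies in the window of chromosome 8 with the lowest median. Gene values were not adjusted for position. On all chromosomes other than 7, 8, 9, 13, 17 and 18, 72.2% of 8579 genes were called and 5.87% passed the fold change, against 79.1% and 6.67% of 2400 genes on those 6. Without those 6 chromosomes, 56 of 59 mitosis genes fell and none rose, 31 of 44 replication genes fell, and 20 of 24 p53 targets rose.

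**Figure D5:**
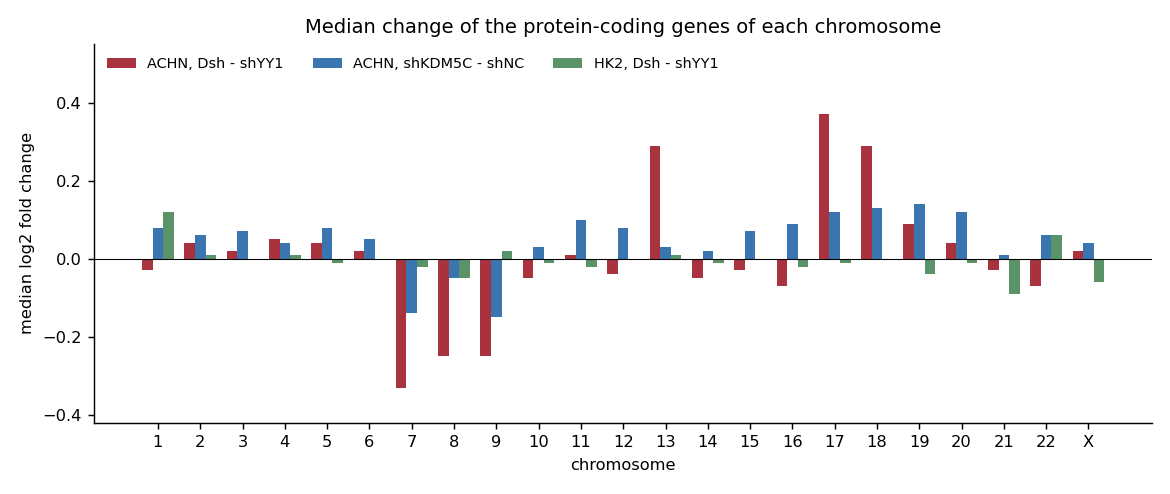
Median log2 fold change (vertical axis) of protein-coding genes at 5 CPM or more on each chromosome (horizontal axis) for ACHN Dsh against shYY1, ACHN shKDM5C against shNC and HK2 Dsh against shYY1. Chromosome 17 stands at 0.37 and chromosome 7 at -0.33 in the first comparison, against -0.01 and -0.02 in HK2 cells.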

How the data were processed

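RNA of 24 ACHN and HK-2 libraries, 3 per group, was sequenced by the study as 150-base read pairs after a NEBNext Ultra preparation. The authors deposited raw counts of read pairs per gene for each library (60675 Ensembl genes, GRCh38), without normalization or filters. The submitters' processing notes name HISAT2 2.0.5, featureCounts 1.5.0-p3 and DESeq2, whereas the headers name featureCounts 2.0.1 with Ensembl 84 and no strand option, so reads of overlapping antisense genes cannot be told apart. Rows without a symbol (4117 genes, 0.243% of counts) stayed in library sizes and tests but were not named.

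Groups came from the labels. Dsh was tested against shYY1 with edgeR 4.0.16 in R 4.3.3 (TMM scaling, filterByExpr, quasi-likelihood F test, two-sided, Benjamini-Hochberg over all genes tested). The standard error was the log2 fold change over the root of F. Calls required an adjusted p under 0.05, and "past the fold change" a log2 change of at least 1.5 in size. The interaction used the 12 ACHN libraries, and the difference between lines 12 libraries of both. CPM were scaled by TMM within a line. Interval and floors (3 counts) cover counting error only. Totals over all libraries ran from 15926561 to 24272298 read pairs. The fit was tested on simulated data before use.

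Genes were named by a rule: the targets and relatives, genes named in the study's text, the 12 largest changes each way at 10 CPM or more without overlap, up to 4 members each way per list at 5 CPM or more, the 5 largest interactions each way, and 6 genes each way that moved alike in both lines. Some genes of the rule are not reported here. Members of the 31 lists and the rule were chosen with earlier results of these data known. Alternatives were DESeq2 1.42.0, other scalings and filters, all 4 groups in 1 fit, removal of a GC and length trend, a replicate block, and leaving out each library. Same-numbered libraries did not deviate together (correlations of 0.00216 to 0.0851 in ACHN), so they were not paired. With 3 against 3, an exact permutation test cannot go below 0.1, so none was used. Promoters were read from RefSeq (GRCh38.p14).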

Additional observations from a re-analysis of the deposited data

Results flagged for a closer look

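The results below were marked because the change of Dsh against shYY1 in ACHN cells differed from that of shKDM5C against shNC (the interaction) or from the same comparison in HK2 cells, each tested with edgeR over all genes at an adjusted p under 0.05. Values are differences between 2 log2 fold changes. The interaction called 4625 genes higher and 4961 lower, and the difference between the lines 3918 higher and 4335 lower. No explanation was tested for any of them. The genes that rose or fell most were chosen on the ACHN Dsh and shYY1 libraries that enter both tests. The direction and size of their values below were therefore largely fixed by that choice. MLPH and GDF6 were named for the size of their interaction.

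For the targets and their relatives the interaction was -0.42 for KDM5C, 0.28 for YY1, 0.23 for KDM5A, 1.04 for KDM5B and 1.04 for YY2, and the difference between the lines 0.68 for KDM5C, 0.22 for KDM5A, 0.57 for KDM5B and 1.58 for YY2. The values of YY1, KDM5A and YY2 lost the threshold under some settings: the interaction of YY1 was 0.094 with the GC and length trend removed (adjusted p = 0.215) and with the replicate block added (adjusted p = 0.236), the interaction of KDM5A was -0.007 with the GC and length trend removed, and that of YY2 lost its call without any one of 9 libraries. For cell division genes the interaction was -1.34 for FOXM1, -0.96 for SMC2 and -0.50 for SMC4, and the difference between the lines -0.63 for FOXM1, -0.48 for SMC2, -0.44 for SMC4, -0.67 for KNTC1 and 0.31 for LMNB1, so that LMNB1 fell less in ACHN than in HK2 cells, while for the others the change in ACHN cells was the lower one.

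For the genes that rose most, the interaction was 9.27 for NRK, 5.30 for SLC17A3, 1.82 for SIGLEC15, 5.70 for ITGB3, 4.57 for PLEK, 4.77 for HOXA7, 6.55 for FXYD2, 4.78 for TRPM8, 4.86 for COL5A2, 3.43 for XKR7, 4.15 for TNFAIP6 and 5.77 for MLPH. The call of SIGLEC15 was lost without shNC replicate 1 (0.655, adjusted p = 0.578). Against HK2 cells the differences were 10.72 for NRK, 5.53 for SLC17A3, 2.97 for SIGLEC15, 4.74 for ITGB3, 4.56 for HOXA7, 4.55 for FXYD2, 2.85 for TRPM8, 4.95 for COL5A2, 3.36 for XKR7 and 2.96 for MLPH. VCAM1 had no count in ACHN shYY1, so its fitted interaction of 9.79 and difference of 9.55 depend on the prior count and are no bounds. The same holds for LINC03061, at 3 counts in ACHN Dsh, with -12.35 and -8.19.

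For the genes that fell most, the interaction was -6.93 for ADAM28, -7.77 for SLCO2B1, -4.35 for EPHA5, -4.33 for BGN, -4.43 for MSLN, -6.67 for PLEKHA7, -3.95 for S100A4, -1.77 for MT-ATP8, -4.31 for CACNA1H, -3.15 for TNNC1, -2.82 for NRXN3, -2.67 for ADAM33 and -4.50 for GDF6. Against HK2 cells the differences were -9.33 for ADAM28, -10.83 for SLCO2B1, -8.05 for EPHA5, -6.46 for BGN, -4.98 for MSLN, -4.61 for PLEKHA7, -5.27 for S100A4, -5.27 for MT-ATP8, -5.34 for CACNA1H, -3.43 for TNNC1, -4.80 for NRXN3 and -4.07 for GDF6. In HK2 shYY1 and Dsh cells ADAM28 (0.12 and 0.080 CPM) and SLCO2B1 (0.020 and 0.176 CPM) were near 0. Neither passed the HK2 filter on low counts, so the size of their differences between the lines is not measured. The interaction of EPHA5 lost its call without shKDM5C replicate 3 (-2.58, adjusted p = 0.322), and the difference of ADAM28 between the lines lost its call without HK2 Dsh replicate 1 (-8.08, adjusted p = 0.0557).

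For the genes that moved the same way in both lines, the interaction was 1.35 for CSF2, 3.42 for ASB2, 1.23 for LIPH, 3.31 for SCG5, -3.09 for FGFR2, -1.35 for ZBED2, -2.84 for TAGLN, -2.81 for SNHG19 and -1.08 for ZFHX4-AS1. Beside VCAM1, SIGLEC15 and LINC03061, whose differences are given above, the size of the change also differed between the lines in 3 of them, by -2.55 for FGFR2, 3.22 for ZBED2 and -1.35 for TAGLN. The difference of SCG5 passed the test without HK2 shYY1 replicate 3 (-1.04, adjusted p = 0.031), and that of SNHG19 without HK2 Dsh replicate 1 (-1.26, adjusted p = 0.0262) and without a filter on low counts (-0.93, adjusted p = 0.0416).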

How the results depend on the processing

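Of the values of named genes for Dsh against shYY1 under all alternatives, 3577 kept their direction and side of the threshold, 36 lost the threshold and 2 reversed. MMP24 reversed, to 0.088 with the GC and length trend removed and to 0.085 with this and the replicate block, and the interaction of KDM5A turned to -0.007 under both settings; the cause was not tested. Without a filter on low counts, 1057 genes rose and 1407 fell past the fold change and 217 fell in HK2 cells, since more low genes enter. With all 4 HK2 groups in 1 fit, 1989 genes were higher and 1776 lower. That fit adds HK2 shKDM5C replicate 1, which departed from replicates 2 and 3 of its group. It had a TMM factor of 0.919 against 1.011 and 1.01, and SMC2 at 383 against 183.5 and 192.2 CPM. Its part in these counts was not tested. Leaving out 1 library gave 4778 to 5295 higher and 4999 to 5326 lower genes, and 718 to 788 and 989 to 1081 past the fold change. DESeq2 called 4877 higher and 5063 lower. With the replicate block, 5240 were higher and 5376 lower, with 670 and 944 past the fold change; the interaction called 4598 and 4938, HK2 cells 4043 and 3745, with 370 and 137 past the fold change, and the difference between lines 3930 and 4357. Of the list counts, 910 stayed within 1.5 times and 20 moved, all in higher genes of lists with few of them. The median change of all genes lay between 0.001 and 0.051 under all alternatives, with 0.004 as reported. Genes near 0 counts in a group, such as VCAM1, have no measurable fold beyond a bound at this depth.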
